A study of Mus musculus with 12 samples.

Results

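The 5 Rel/NF-kB subunit genes (Nfkb1, Nfkb2, Rel, Rela and Relb), 4 genes of the IkB family (Nfkbia, Nfkbib, Nfkbie and Bcl3) and Tnfaip3, which encodes the ubiquitin-editing enzyme A20, were examined in colonic myofibroblasts that lack the TNF receptor TNFR1. They were taken by gene symbol from a table of 24411 genes, and all 10 were found and passed the filter on low counts. The cells were primary colonic myofibroblasts, contractile cells of the gut mesenchyme, derived from the distal large bowel of C57BL/6 mice aged 16 weeks and used at passage 6 to 8. The knockout group was 6 libraries from TNFR1-/- mice and the control group 6 libraries from heterozygous TNFR1+/- mice, so the controls also carry 1 null allele. Cultures were expanded in medium with serum, insulin, transferrin, selenite and epidermal growth factor, were not treated, and gave RNA on day 5 after seeding in Matrigel. The labels do not say how many animals or cultures stand behind the libraries, so every p-value rests on the spread among these libraries alone and that spread could be technical.

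NF-kB is a family of dimeric transcription factors. In resting cells RELA (p65), REL or the p50 product of Nfkb1 is held in the cytoplasm by IkB proteins, and TNF binding to TNFR1 activates the IKK kinases, which mark IkB-alpha, IkB-beta and IkB-epsilon (from Nfkbia, Nfkbib and Nfkbie) for degradation. The noncanonical arm processes the Nfkb2 product p100 into p52, the partner of RELB. BCL3 is an atypical IkB protein that works in the nucleus with p50 or p52 dimers, and A20 ends signalling at the receptor complex. Nfkbia and Tnfaip3 are textbook NF-kB targets that feed back on the pathway.

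The 12 libraries did not vary evenly. They formed 4 sets, a larger and a smaller one in each genotype: the larger sets were knockout 1 to 4 and control 1 to 5, and the smaller sets were knockout 5 and 6 and control 6 by itself. Spearman's rho between profiles was 0.989 to 0.998 inside the sets, and 0.925 to 0.953 for libraries of the same genotype in different sets. Totals were 6543013 to 9937008 counts in knockout libraries and 11890729 to 16458689 in control libraries, and the 10 genes together drew 1480 to 3191 counts in knockout libraries and 3854 to 4608 in control libraries. The ribosomal RNA precursor Rn45s made up 7.01% to 8.25% of knockout 5 and 6, 1.6% to 2.1% in knockout 1 to 4 and 0.351% to 1.19% in controls. The targeted gene Tnfrsf1a was at 40.6 to 46.1 CPM (counts scaled to a common library size) in knockout libraries and 54.9 to 81.3 CPM in control libraries, a log2 difference of -0.76 (SE 0.10, edgeR adjusted p = 9.24e-05), and the exons that remain cannot be read from a gene total. Of 8 myofibroblast and mesenchyme markers 3 rose, 1 fell and 4 did not pass, where 21.4% of all genes tested were higher and 21.6% lower. Acta2, the smooth muscle actin of myofibroblasts, was at 2788 to 6647 CPM in knockout libraries and 1460 to 3278 CPM in control libraries, while the receptor Pdgfra was at 85.0 to 125.6 CPM in knockout libraries and 175.5 to 254.1 CPM in control libraries. Of 10 epithelial markers 6 stayed under 10 counts in all libraries, with Epcam and Cdh1 at 1 count at most, but Krt19 was read at 52 to 169 counts and Krt20 at 8 to 116. The epithelial markers summed to 15.5 to 23.4 CPM in knockout libraries and 8.05 to 22.3 CPM in control libraries, and the 2 that entered the test did not pass. For the 10 genes, results that change without the smaller sets are given both ways.

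Feedback within the family is known to run through NF-kB sites near the start of some of these genes. RefSeq promoter sequences (GRCm38.p6, 250 bases before to 50 after a start) matched 8 of the 10 genes, all but Nfkb1 and Relb. The NF-kB consensus of 10 bases was searched on both strands, with overlapping matches allowed. At least 1 match stood in 6 of the 8 genes, against 5.14% of all 27025 genes with a sequence and 6.35% of the 9253 such genes tested here. Rela and Nfkbib held none. Stretches with matches are shown, for Nfkb2 at the first of its 3 listed starts, because they contain the letters shared by genes whose levels went different ways, with the matches in capitals, each read in the direction of transcription and ending at most 20 bases after the start.
Bcl3, chr7:19822736-19823005, minus strand: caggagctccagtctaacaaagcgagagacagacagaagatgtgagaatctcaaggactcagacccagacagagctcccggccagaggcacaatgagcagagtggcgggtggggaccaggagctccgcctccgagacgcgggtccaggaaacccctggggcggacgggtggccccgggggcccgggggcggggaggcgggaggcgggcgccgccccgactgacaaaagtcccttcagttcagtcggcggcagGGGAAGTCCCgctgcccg
Nfkbia, chr12:55492637-55492706, minus strand: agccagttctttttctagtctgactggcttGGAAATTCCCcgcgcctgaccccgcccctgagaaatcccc
Nfkbie, chr17:45555564-45555633, plus strand: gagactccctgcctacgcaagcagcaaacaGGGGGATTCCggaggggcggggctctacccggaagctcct
Tnfaip3, chr10:19015391-19015565, minus strand: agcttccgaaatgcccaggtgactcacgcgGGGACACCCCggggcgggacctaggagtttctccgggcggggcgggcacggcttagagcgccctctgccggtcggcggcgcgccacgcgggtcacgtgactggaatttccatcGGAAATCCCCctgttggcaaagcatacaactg
Nfkb2, chr19:46304668-46304756, plus strand: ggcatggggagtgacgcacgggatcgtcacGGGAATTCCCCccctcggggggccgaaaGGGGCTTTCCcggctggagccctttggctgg
Rel, chr11:23771021-23771091, minus strand: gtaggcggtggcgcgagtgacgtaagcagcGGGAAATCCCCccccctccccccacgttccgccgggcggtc
In Bcl3 the single match lay 3 to 12 bases after the start, and in Nfkbia it lay at -29 to -20. Tnfaip3 had matches at -125 to -116 and -12 to -3, and Nfkb2 had 2 overlapping ones at -39 to -30 and -38 to -29 and a further one at -11 to -2 at its first listed start, with further matches around its other starts. A match is a run of letters and not evidence that a factor binds there, and no match says only that the consensus is not in this window.

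**Figure D1:**
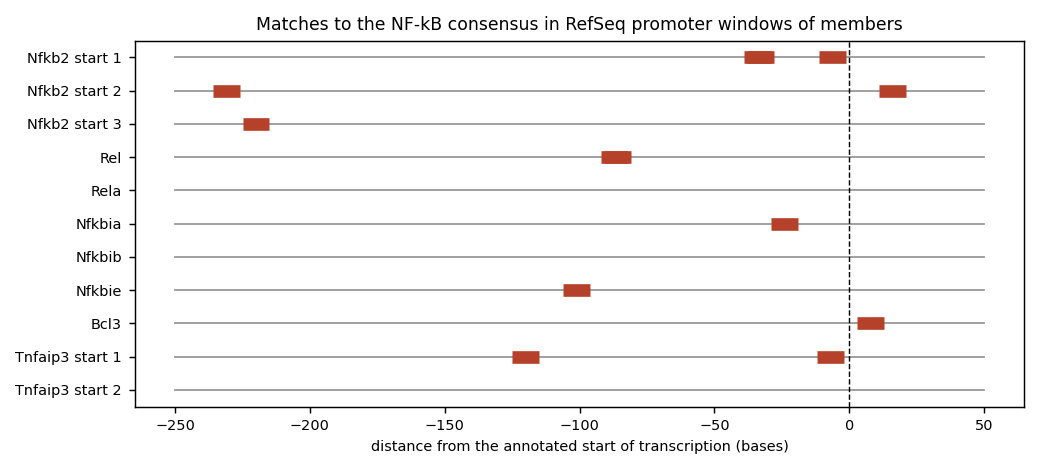
Position of matches to the NF-kB consensus (red blocks) along the promoter windows of the 8 genes with a RefSeq sequence, one grey line per annotated start, with the distance from the start in bases on the x axis and the start as a dashed line. Of the 8 genes, 6 have a match at 1 or more starts, and Rela and Nfkbib have none.

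Set per length of exon, Rela was the highest of the 10 transcripts and Rel the lowest in both genotypes. Levels in CPM per kilobase of GENCODE M21 exon averaged 27.9 ± 4.66 for Rela, 13.6 ± 1.30 for Nfkb1, 13.4 ± 2.06 for Nfkb2, 10.4 ± 1.97 for Nfkbia, 7.91 ± 1.99 for Relb and 7.19 ± 2.03 for Nfkbib in knockout libraries (SD, n = 6 each). The knockout order ended with Tnfaip3 at 2.82 ± 2.30, Nfkbie at 1.87 ± 0.281, Bcl3 at 1.55 ± 0.330 and Rel at 0.312 ± 0.0756 CPM per kilobase. In control libraries Rela was at 31.4 ± 0.913, Nfkb2 at 15.2 ± 0.489, Nfkb1 at 13.3 ± 0.646, Nfkbib at 12.9 ± 2.56, Relb at 12.7 ± 1.08 and Bcl3 at 10.1 ± 1.44 CPM per kilobase. The control order ended with Nfkbia at 7.50 ± 1.00, Nfkbie at 3.40 ± 0.572, Tnfaip3 at 1.45 ± 0.168 and Rel at 0.209 ± 0.108 CPM per kilobase. Bcl3 thus ranked 9th of 10 in knockout libraries and 6th in control libraries, and Nfkbia 4th and 7th. In knockout libraries the ranges of neighbours in this order overlapped throughout, except between Rela and Nfkb1 and between Bcl3 and Rel. In control libraries they overlapped for Nfkb1 with Nfkbib, for Nfkbib with Relb, for Relb with Bcl3 and for Bcl3 with Nfkbia, and did not overlap for the other 5 pairs of neighbours. The lengths come from an annotation that may differ from the one behind the counts.

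Of the 10 genes, 4 fell (Bcl3, Nfkbie, Nfkbib and Relb), 1 rose (Nfkbia) and 5 did not pass the test (edgeR's quasi-likelihood test with p-values adjusted by Benjamini-Hochberg over all genes, threshold 0.05). Over all 12146 genes tested, 43.0% passed, 21.6% lower and 21.4% higher, so a count of 5 in 10 is near the background. The median log2 difference of the 10 genes was -0.17, against 0.02 over all genes tested. By role, 3 of the 4 IkB family genes fell and 1 rose, 1 of the 5 subunit genes fell and the other 4 did not pass, and Tnfaip3 did not pass. The groups did not overlap for 2 of the 10 genes, against 23.0% of all genes tested. All 6 knockout libraries lay below all 6 control libraries for these 2, Bcl3 and Nfkbie, against 12.5% of all genes tested, and none had all knockout libraries above, against 10.6%. Leaving out knockout 5 and 6 gave 6 lower and 1 higher, with 52.0% of all genes passing, 27.5% lower and 24.5% higher. Leaving out control 6 as well gave 6 lower and 2 higher, with 71.3% of all genes passing, 36.4% lower and 34.9% higher. That last fit holds 1 set per genotype, so set and genotype cannot be told apart.

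**Figure D2:**
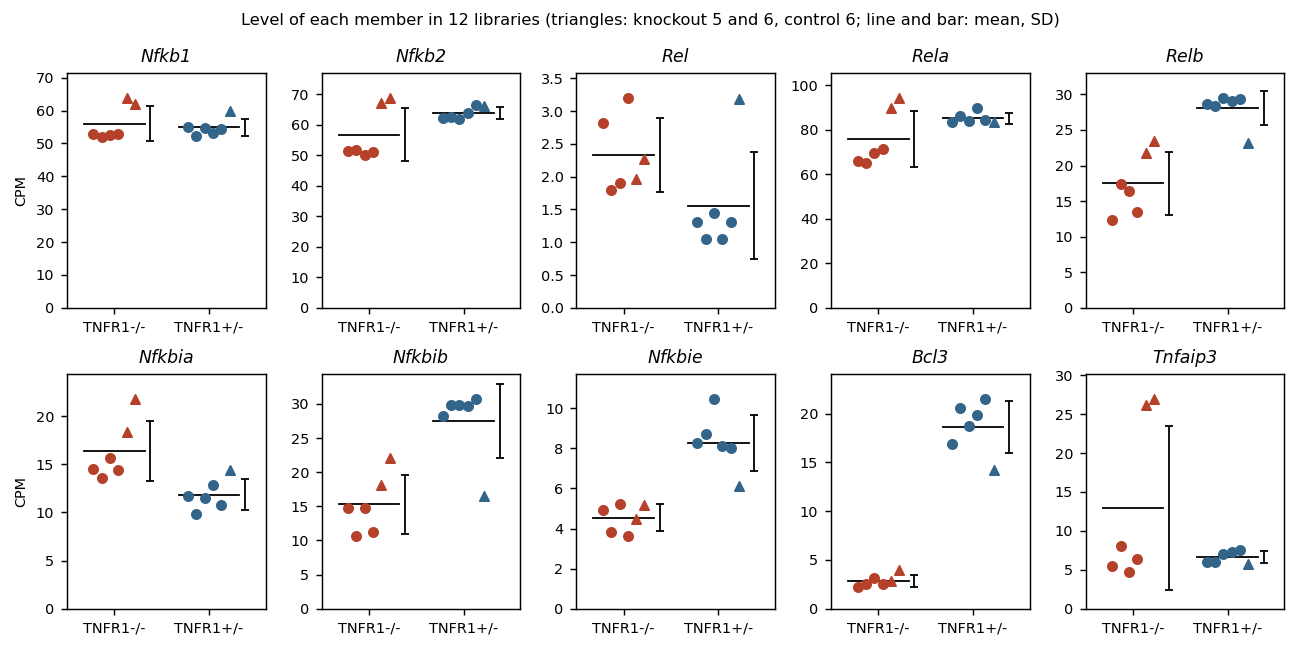
Level of each gene in CPM (y axis, from 0) in the 6 TNFR1-/- libraries (red, left) and the 6 TNFR1+/- libraries (blue, right), with triangles for knockout 5 and 6 and control 6, lines for group means and bars for SD. Bcl3 and Nfkbie are the panels in which the groups do not overlap, and Tnfaip3 is high in knockout 5 and 6 alone.

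Among the inhibitors, Bcl3 differed most. Its lowest, median and highest levels were 2.20, 2.68 and 3.93 CPM in knockout libraries and 14.2, 19.3 and 21.5 CPM in control libraries. The highest knockout library, knockout 6, was below the lowest control library, control 6. The raw counts were 20 to 38 in knockout libraries and 224 to 283 in control libraries. The fitted level was 6.47-fold lower in knockout libraries (log2 difference -2.69, SE 0.16, edgeR adjusted p = 7.31e-07), and by p-value Bcl3 ranked 5th of the 12146 genes tested. An exact two-sided permutation test over the 12 libraries gave p = 0.00216, the smallest that 6 against 6 can give. Any gene whose groups do not overlap gets this value, as 23.0% of all genes tested would, so it adds nothing to the separation. Between sets the log2 difference ran from -2.92 between the larger sets to -2.08 between the smaller sets, that is 7.56-fold to 4.23-fold lower.

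Nfkbie, which encodes IkB-epsilon, was the other inhibitor whose groups did not overlap. It had 3.62, 4.69 and 5.22 CPM as lowest, median and highest in knockout libraries and 6.11, 8.19 and 10.4 CPM in control libraries. The knockout libraries of both sets lay together, and control 6 was the lowest control. The log2 difference was -0.87 (SE 0.15, edgeR adjusted p = 0.000634; exact permutation p = 0.00216), and the level was 2.003-fold lower between the larger sets and 1.27-fold lower between the smaller sets.

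Nfkbib, which encodes IkB-beta, fell in the fit over all libraries but not in every contrast of sets. Its lowest, median and highest levels were 10.7, 14.7 and 22.1 CPM in knockout libraries and 16.5, 29.8 and 30.7 CPM in control libraries. Control 6, at 16.5 CPM, lay below knockout 5 at 18.2 CPM and knockout 6 at 22.1 CPM, while control 1 to 5 lay at 28.3 to 30.7 CPM. The log2 difference was -0.84 (SE 0.20, edgeR adjusted p = 0.00438; exact permutation p = 0.00649). Between sets it ran from -1.21 between the larger sets to 0.29, the opposite direction, between the smaller sets.

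Nfkbia, which encodes IkB-alpha, rose, and was the only one of the 10 genes called higher over all 12 libraries. It had 13.6, 15.1 and 21.7 CPM as lowest, median and highest in knockout libraries and 9.87, 11.6 and 14.4 CPM in control libraries. Control 6, at 14.4 CPM, lay among knockout 1 to 4, and the 5 other controls were below every knockout library. The log2 difference was 0.47 (SE 0.14, edgeR adjusted p = 0.0142; exact permutation p = 0.00649). Between sets it was as high as 0.82 (knockout 5 and 6 over control 1 to 5) and as low as 0.01 (knockout 1 to 4 over control 6).

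Among the subunits, only Relb, the partner of p52, passed the test over all 12 libraries, and it fell. Its lowest, median and highest levels were 12.3, 16.9 and 23.4 CPM in knockout libraries and 23.2, 28.9 and 29.4 CPM in control libraries. Knockout 6, at 23.4 CPM, and control 6, at 23.2 CPM, were the libraries that met. The log2 difference was -0.68 (SE 0.15, edgeR adjusted p = 0.00327; exact permutation p = 0.00433), and it was -0.98 between the larger sets and -0.04 between the smaller sets. Relb, Bcl3 and Nfkbib stand on the same chromosome, Relb at chr7:19606217-19629438, Bcl3 at chr7:19808462-19822770 and Nfkbib at chr7:28758251-28767512. All are on the minus strand (GRCm38, GENCODE M21). Rela and Nfkb2, which did not pass over all libraries, also share a chromosome, 19, and Nfkbie, which fell, is on chromosome 17. A part of gene position in the differences was not tested.

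Rela and Nfkb2 were lower in knockout 1 to 4 than in knockout 5 and 6, and the 2 sets lay on either side of most controls. Rela, which encodes p65, had 65.1 to 71.4 CPM in the larger knockout set, 89.6 and 94.1 CPM in knockout 5 and 6, and 83.5 to 89.8 CPM in control libraries. Nfkb2 had 50.2 to 51.8 CPM in the larger knockout set, 67.1 and 68.7 CPM in knockout 5 and 6, and 62.1 to 66.7 CPM in control libraries. For both genes knockout 1 to 4 lay below every control. Knockout 6 lay above every control for both, and knockout 5 for Nfkb2. Over all libraries the log2 difference was -0.17 for Rela (95% interval -0.39 to 0.06, edgeR adjusted p = 0.198) and -0.17 for Nfkb2 (-0.38 to 0.04, adjusted p = 0.157). Without knockout 5 and 6 both passed, at -0.33 for Rela (edgeR adjusted p = 0.000437) and -0.32 for Nfkb2 (adjusted p = 0.000354).

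Nfkb1, the source of p50, and Rel, which encodes c-Rel, did not pass over all libraries. Nfkb1 had 51.8 to 63.7 CPM in knockout libraries and 52.2 to 59.8 CPM in control libraries, with a log2 difference of 0.03 (95% interval -0.14 to 0.20, edgeR adjusted p = 0.793). That interval is the narrowest among the 10 genes. Rel was read at 12 to 50 counts per library and had 1.80 to 3.19 CPM in knockout libraries and 1.05 to 3.18 CPM in control libraries. Control 6, at 3.18 CPM, stood with the highest knockout library, and the 5 other controls reached only 1.45 CPM, below every knockout library. The log2 difference of Rel was 0.57 (SE 0.29, edgeR adjusted p = 0.129; exact permutation p = 0.0476) and 0.92 without control 6 (edgeR adjusted p = 0.00209).

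Tnfaip3 was high in the pair of knockout libraries that stand apart and not in the others. It had 26.1 and 26.9 CPM in knockout 5 and 6, 4.75 to 8.08 CPM in the larger knockout set and 5.79 to 7.59 CPM in control libraries. Knockout 1 to 4 thus overlapped the controls, and knockout 5 and 6 were 4.28-fold above knockout 1 to 4 as summed sets. Over all libraries the log2 difference was 0.97 (SE 0.43, edgeR adjusted p = 0.0834; exact permutation p = 0.359), and without knockout 5 and 6 it was -0.10 (edgeR adjusted p = 0.599). Knockout 5 and 6 are also the libraries with the highest share of Rn45s, and the part of library quality in this level was not tested.

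**Figure D3:**
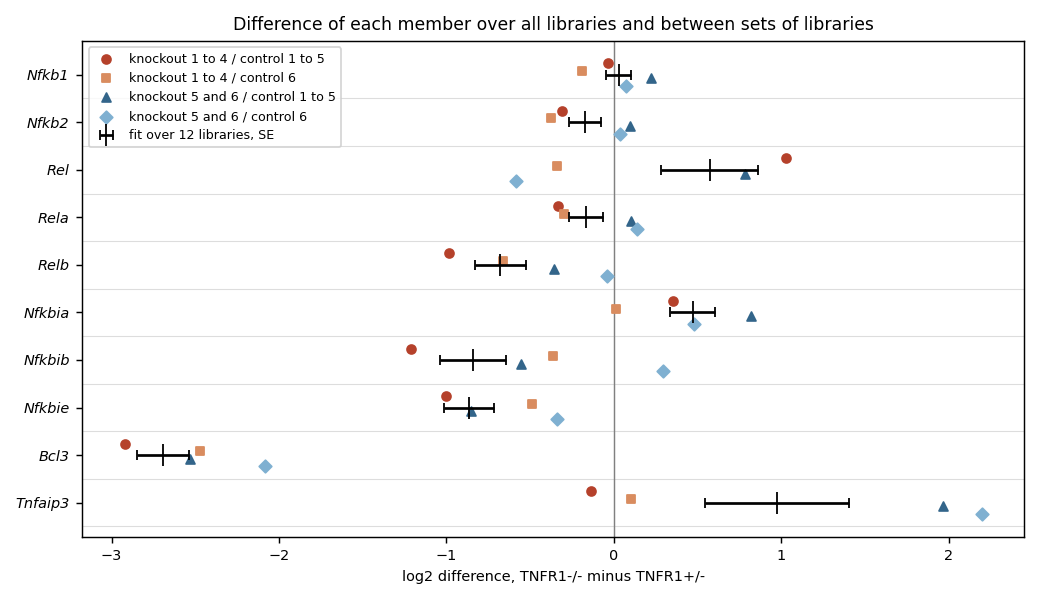
Log2 difference, TNFR1-/- minus TNFR1+/-, of each gene in the fit over 12 libraries (black, with SE) and in the 4 pairings of knockout sets and control sets (symbols), computed from summed counts. For Bcl3 every symbol lies at -2.08 or below, whereas for 6 genes the symbols stand on both sides of 0.

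The sign was the same in all 4 contrasts of sets for 4 of the 10 genes (Bcl3, Nfkbie and Relb lower, Nfkbia higher) and differed between contrasts for the other 6. When the counts of each set were summed, leaving 2 summed samples per genotype, Bcl3 had a log2 difference of -2.51 (SE 0.41, edgeR adjusted p = 0.613) and the unadjusted p was 0.000833. No gene of 13132 passed in that fit, and 1047 genes had an unadjusted p under 0.05. The other calls on these genes were likewise lost there (edgeR adjusted p = 0.645 for Nfkbie, 0.688 for Relb, 0.712 for Nfkbia and 0.726 for Nfkbib).

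Counts were also read against Rela within the same library, a measure that no scaling between libraries can change. For 3 of the 9 other genes the ratio did not overlap between groups, against 22.9% of all genes set against Rela in this way. Bcl3 counts were 3.13% to 4.56% of Rela counts in knockout libraries and 17.1% to 25.5% in control libraries. Nfkbia counts were 20.1% to 23.1% of Rela counts in knockout libraries and 11.4% to 17.2% in control libraries, so this ratio separated the groups although the CPM level did not. The ratio moves with Rela as well: between knockout 1 to 4 and control 6 the log2 difference was 0.01 for Nfkbia and -0.30 for Rela. Nfkbie, whose CPM levels did not overlap, did overlap against Rela, at up to 7.52% in knockout libraries and down to 7.31% in control libraries. Relb counts were 18.8% to 26.8% of Rela counts in knockout libraries and 27.8% to 35.1% in control libraries. The ratio of Nfkb2 to Rela was nearly constant, at 71.5% to 79.7% in knockout libraries and 71.2% to 79.4% in control libraries. These ratios compare libraries and not the levels of different genes, which depend on length.

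**Figure D4:**
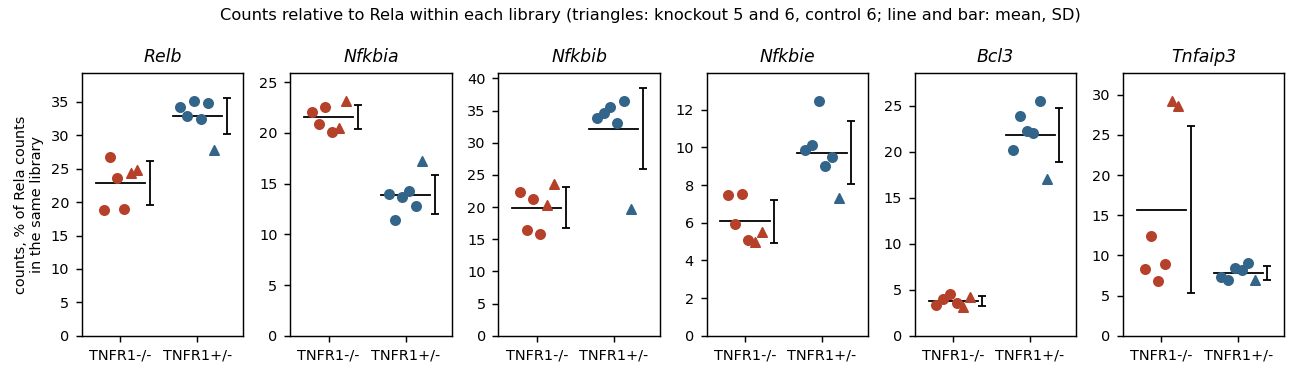
Counts of 6 genes as a percentage of the Rela counts of the same library (y axis, from 0) in TNFR1-/- (red, left) and TNFR1+/- (blue, right) libraries, with triangles for knockout 5 and 6 and control 6, lines for means and bars for SD. Bcl3 and Relb lie lower and Nfkbia higher in all 6 knockout libraries than in all 6 control libraries.

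Upstream, 7 of 11 genes of the TNFR1 receptor complex fell, Tnfrsf1a among them, 1 rose and 3 did not pass, where 21.6% of all genes tested were lower and 21.4% higher. The median log2 difference of the list was -0.38. Without knockout 5 and 6 and control 6, where 36.4% of all genes were lower and 34.9% higher, 9 of the 11 were lower and 1 higher. Birc3, a ubiquitin ligase of the complex, was at 9.23 ± 1.38 CPM in knockout libraries and 17.2 ± 1.39 CPM in control libraries (SD, n = 6 each), with an edgeR adjusted p of 9.64e-05 for a log2 difference of -0.90 (SE 0.12). The adaptor Traf5 rose, with 19.4 ± 3.03 CPM in knockout libraries and 8.69 ± 2.09 CPM in control libraries. Of the IKK and TAK1 kinase genes, 4 of 9 rose, none fell and 5 did not pass, a share called near the 43.0% of all genes. Leaving out the smaller sets gave 5 higher and 1 lower, with 71.3% of all genes called. Among those that rose was Chuk, which encodes IKK-alpha, at 86.6 ± 11.8 CPM in knockout libraries and 45.5 ± 8.17 CPM in control libraries. Tbk1, an IKK-related kinase, rose with a log2 difference of 0.43 (SE 0.12, edgeR adjusted p = 0.0123).

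The ubiquitin ligase that degrades phosphorylated IkB had 3 genes higher, none lower and 6 not past of 9, a smaller share called than the 43.0% of all genes. It had 3 higher and 2 lower without the smaller sets, where 34.9% of all genes were higher and 36.4% lower. Skp1a, a core subunit, was at 159.7 ± 14.7 CPM in knockout libraries and 114.2 ± 1.74 CPM in control libraries, and the ubiquitin-conjugating enzyme Ube2d3 was at 310.1 ± 46.6 CPM in knockout libraries and 204.1 ± 10.6 CPM in control libraries. Both have near-identical relatives or copies in the genome, so their own levels are uncertain. In the noncanonical list 6 of 11 genes were tested, with 1 higher, 2 lower and 3 not past. Of all genes tested 21.4% were higher and 21.6% lower. The receptor Tnfrsf12a rose (log2 difference 0.93, SE 0.19), the ligand Tnfsf13b fell (-1.33, SE 0.24) and the lymphotoxin receptor Ltbr fell (-0.37, SE 0.10), with edgeR adjusted p-values of 0.0019, 0.00076 and 0.00918. Low counts limit Tnfsf13b, which had 4 to 13 counts in knockout libraries and 25 to 46 in control libraries. It passed the filter through the control libraries. Map3k14, the kinase NIK that starts this arm, had a log2 difference of -0.32 and did not pass (edgeR adjusted p = 0.142).

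Other IkB proteins and nuclear regulators gave 2 higher, 3 lower and 6 not past of 11, with a median of -0.23. Of all genes tested 43.0% were called, so this count is near the background. Nfkbiz, an atypical nuclear IkB protein like BCL3, fell by 0.52 on the log2 scale (SE 0.15, edgeR adjusted p = 0.0124), at 11.4 to 18.2 CPM in knockout libraries and 18.9 to 28.7 CPM in control libraries. Nfkbil1, an IkB-like gene, fell by 0.66 (SE 0.12), while Nkrf, which encodes a repressor, and Nkap, an activating factor, rose by 0.39 (SE 0.12) and 0.33 (SE 0.11) on the same scale. The call on Nkap was lost in each fit without knockout 5, knockout 6 or 1 of control 2 to 5 (edgeR adjusted p = 0.0614 to 0.072). A20 partners and other deubiquitinases gave 2 higher, 2 lower and 4 not past of 8, a share called also near the 43.0% of all genes. Tnip2, an A20-binding inhibitor, was at 9.28 ± 1.53 CPM in knockout libraries and 15.1 ± 1.09 CPM in control libraries, and its relative Tnip1 fell by 0.29 on the log2 scale (SE 0.09). Otud7b, a deubiquitinase, and the ligase Itch rose by 0.30 (SE 0.08) and 0.27 (SE 0.08), and the call on Itch was lost without control 2 or control 5 (edgeR adjusted p = 0.0521 and 0.052).

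Of 32 known target genes outside the 10, 19 were tested, and 11 fell, 4 rose and 4 did not pass, with a median log2 difference of -0.61, where 21.6% of all genes tested were lower and 21.4% higher. With the smaller sets left out 22 were tested, with 15 lower and 7 higher, where 36.4% of all genes were lower and 34.9% higher. Some tested targets passed the filter mainly through the control libraries. Mmp9 was such a gene, at 0 to 0.931 CPM in knockout libraries and 0.827 to 3.92 CPM in control libraries. Genes of this kind could hardly be called higher, so the filter leans the target counts toward lower. Mmp3, a matrix metalloproteinase, had the largest fall of the genes tested in the list at -3.61 (SE 0.29) and the adhesion molecule Icam1 fell by 2.51 (SE 0.23), with edgeR adjusted p-values of 4.98e-06 and 1.07e-05. For Mmp3 the log2 difference was -4.28 without knockout 5 and 6 and control 6. Ptgs2, the inducible cyclooxygenase, ran from 1239 to 2578 CPM over the knockout libraries, with the 2 highest in knockout 5 and 6, and had 201.5 to 210.4 CPM in control 1 to 5 but 1085 CPM in control 6. It rose by 2.28 on the log2 scale (SE 0.47, edgeR adjusted p = 0.00206), and without control 6 by 3.05 (adjusted p = 4.27e-07). The stress gene Gadd45b rose by 1.76 (SE 0.29). Of the target genes with a RefSeq promoter sequence, 11 of 24 held the NF-kB consensus, as did 4 of 6 A20 partners and deubiquitinases and 0 of 9 genes of the receptor complex. Tnf reached 6 counts at most and did not enter the test.

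**Figure D5:**
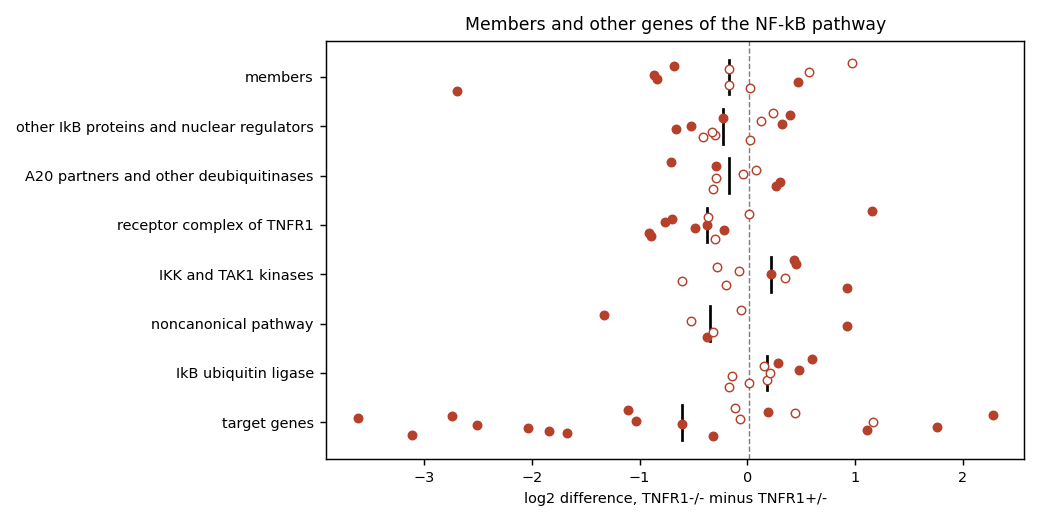
Log2 difference, TNFR1-/- minus TNFR1+/-, of every tested gene of the 10 examined (labelled members) and of 7 further lists of the pathway, filled where the edgeR adjusted p was under 0.05, with the median of each list as a black bar and the median over all genes tested, 0.02, as a dashed line. The tested target genes spread from -3.61 to 2.28. No gene of the IKK and TAK1 kinase list or of the IkB ubiquitin ligase list is filled on the negative side.

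Most tested markers of leukocytes, cells in which several of these genes are highly expressed, were lower along with Bcl3 and Nfkbie. Of 15 macrophage and leukocyte markers 13 were tested, and 9 fell, none rose and 4 did not pass, where 21.6% of all genes tested were lower. All 6 knockout libraries lay below all 6 control libraries for 9 of the 13, against 12.5% of all genes. Some markers, such as Mrc1 at 0.128 to 0.724 CPM in knockout libraries, passed the filter only through the control libraries. Such genes could hardly be called higher, so the filter itself leans these counts toward lower. In the fit without the smaller sets 10 of 12 markers were lower, where 36.4% of all genes were lower. The summed level of the markers was 42.3 to 68.5 CPM in knockout libraries and 97.7 to 146.5 CPM in control libraries. The T cell marker Cd3e was at 0 counts everywhere. Among defining markers, Ptprc was at 0.209 to 1.04 CPM in knockout libraries and 0.678 to 1.65 CPM in control libraries. Csf1r was at 2.09 to 4.90 CPM in knockout libraries and 3.36 to 8.33 CPM in control libraries. Neither Ptprc nor Csf1r passed (edgeR adjusted p = 0.211 and 0.072). Itgam was called lower, at 0.314 to 1.06 CPM in knockout libraries and 2.20 to 3.22 CPM in control libraries. Its counts were 3 to 10 in knockout libraries and 27 to 44 in control libraries, so it too passed the filter through the controls. Control 6 had the highest marker sum and the lowest Bcl3 level among the controls. Among the knockout libraries the order differed: knockout 6 had the highest marker sum, 68.5 CPM, and also the highest Bcl3 level, 3.93 CPM. Much of the marker sum came from 1 gene, Lyz2, at 27.3 to 36.9 CPM in knockout libraries and 49.2 to 93.2 CPM in control libraries. Of 5 smooth muscle markers 4 rose, none fell and 1 did not pass, where 21.4% of all genes tested were higher. The median log2 difference was 2.0, but the groups did not overlap for only 1 of the 5, against 23.0% of all genes tested. These markers summed to 836.6 to 2358 CPM in knockout libraries and 469.5 to 1125 CPM in control libraries. Knockout 5 and 6, at 836.6 and 846.7 CPM, lay above control 1 to 5 but below control 6, at 1125 CPM. The glial marker Sox10 fell, at 0 to 1.16 CPM in knockout libraries and 1.78 to 2.49 CPM in control libraries (log2 difference -2.02, SE 0.47, edgeR adjusted p = 0.00447; 33 counts at most). Of 2 endothelial markers tested 1 fell, and the list of 6 summed to 5.28 to 9.63 CPM in knockout libraries and 6.85 to 11.1 CPM in control libraries. The part of these cell types in the differences was not tested, and in these bulk samples fewer cells of a type and less RNA per cell cannot be told apart.

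The genes most like each of the 10 in their log2 CPM over the 12 libraries were found by Pearson r, as a description with no test, since the libraries share 4 sets and any gene that differs between sets scores high. For Bcl3 these were Egln1 (r = 0.994), Itpk1 (0.992) and Fbln1 (0.990). For Tnfaip3 they were Bend3 (r = 0.990), Lig1 (0.983) and Ddx20 (0.980), and for Relb they were Pdlim4 (0.984), Ttc7 (0.983) and Tgfb1 (0.975). Nfkb2 was most like Mmp10 (r = 0.983), Rela most like Mmp13 (0.972), Nfkbib most like Irf2bp2 (0.982), Nfkbie most like Pgap2 (0.970), Nfkbia most like Fpgt (0.967), Rel most like Sugp2 (0.942) and Nfkb1 most like Acsl4 (0.937). None of the 10 genes was among the 3 genes most like another of them.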

How the data were processed

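The deposited table gives expected counts per gene symbol for 12 libraries, estimated by the authors and not normalized. Per the submitters' processing notes the tools were RSEM 1.2.15 and Bowtie2 2.1.0, and a human genome build is named although the symbols are mouse. Neither annotation nor strand setting is given in the sources used, so reads of overlapping genes may not be told apart. Groups and replicate numbers came from the sample titles. Counts were rounded (2.67% to 3.48% of values had decimals), filtered with filterByExpr (minimum count 10, total 15), scaled by TMM and tested for genotype with edgeR 4.0.16 in R 4.3.3 over 12146 genes. SE is the log2 difference divided by the root of F, and 95% intervals use 10 residual degrees of freedom. The members and lists were chosen with earlier results of these data known. Named were the 10 members and Tnfrsf1a, up to 2 higher and 2 lower called genes with the smallest adjusted p per pathway list, set cell markers, Rn45s, and the genes most like each member; Map3k14, Cd3e, Krt19, Krt20 and Tnf were added after their values were seen. Alternatives used limma 3.58.1 and DESeq2 1.42.0. Scripts were tested on simulated data.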

Additional observations from a re-analysis of the deposited data

Results flagged for a closer look

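In control libraries 3 genes had 1 library far from the other 5, and it was control 6 each time. Rel was at 3.18 CPM in control 6, against 1.05 to 1.45 CPM in the other controls. Relb was at 23.2 CPM there, against 28.4 to 29.4 CPM, and Nfkbib at 16.5 CPM, against 28.3 to 30.7 CPM. These 3 flags came from 20 groups examined (10 genes in each genotype), and chance flags about 1 in 20 groups.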

How the results depend on the processing

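The calls on Bcl3, Nfkbie, Nfkbib, Relb and Nfkbia kept their direction and passed under 22 of 23 alternatives each, and failed when counts were summed over 4 sets of libraries, where edgeR called 0 genes higher and 0 lower, 0 members included (2 summed samples per genotype, 1047 genes at an unadjusted p under 0.05; no other tool was run on the sums). Over the alternatives the log2 difference ranged from -2.91 to -2.51 for Bcl3, -0.996 to -0.70 for Nfkbie, -1.21 to -0.49 for Nfkbib, -0.97 to -0.49 for Relb and 0.29 to 0.54 for Nfkbia. Without knockout 5 and 6 and control 6, 4319 genes were higher and 4508 lower, against 2597 and 2622 over all libraries, and 2 members were higher. DESeq2 also called 2 members higher, adding Tnfaip3 (adjusted p = 0.0497). Leaving out 1 library gave 2148 to 3092 genes higher and 2270 to 2977 lower, with 1 to 2 members higher and 4 to 5 lower: Tnfaip3 passed without knockout 1 or knockout 3, Nfkb2 without knockout 6 and Rel without control 6. Nfkb1 changed sign with library totals alone (-0.025), without knockout 5 or knockout 6 (-0.011 to 0.056 over the 12 libraries left out in turn), without both (-0.064) and without these and control 6 (-0.035). Tnfaip3 changed sign without knockout 5 and 6 (-0.10) and without these and control 6 (-0.13). The cause of these changes was not tested. Same-numbered libraries did not deviate together (r = -0.366 to 0.185), so the numbers were not taken as pairs. With a replicate block 1867 genes were higher and 2107 lower, with 1 member higher and 4 lower. The 22 named pathway genes kept their direction under all 23 alternatives. All 22 calls were lost with summed sets, 4 with a replicate block (Nkap, Nfkbiz, Itch and Tbk1) and 3 under other alternatives (Nkap and Itch, and Nkrf with library totals alone). Low counts limit Rel, at 12 to 50 per library, and the pathway gene Tnfsf13b, at 4 to 46.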
